A study of Mus musculus with 24 samples.

Results

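The protein-coding genes of the cytosolic and mitochondrial ribosomes were followed through myoblast differentiation and Tead1/4 silencing. Members were all protein-coding genes whose symbol is Rpl or Rps with a number and at most 1 further letter, Rplp0 to Rplp2, Rpsa, or Mrpl or Mrps with a number. The rule selected 153 of the 28109 genes in the count table. By symbol alone 80 were assigned to the cytosolic ribosome (32 of the small and 48 of the large subunit). The other 73 were assigned to the mitochondrial ribosome (26 and 47). RNA-seq counts were available for 24 libraries from 2 kinds of mouse myoblast. Primary myoblasts (PMs) came from the muscles of wild-type C57BL/6 mice 3 to 4 weeks old (strain label C57/B6) and were grown on matrigel in IMDM. C2C12 cells, an established myoblast line of strain label C3H, were grown without matrigel in DMEM. Cells received either control siRNA (siControl; the labels call it siLuc) or siRNA pools against both Tead1 and Tead4 (siTead1/4). RNA was taken 24 hours later from undifferentiated cells (day 0) and after 3 and 6 days in 2% horse serum, which gave 12 groups of 2 biological replicates. All cells were transfected, so the siControl libraries are not untreated cells.

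Translation of nuclear messages is carried out by the cytosolic ribosome, whereas the mitochondrial ribosome makes only the few respiratory chain subunits that the mitochondrial genome encodes. The proteins of both are encoded in the nucleus. Messages of cytosolic ribosomal proteins typically begin with a terminal oligopyrimidine tract (a C followed by further C and T bases), through which mTOR signalling controls their translation. Myoblasts that leave the cell cycle and fuse into myotubes stop dividing and build contractile and oxidative machinery. Tead1 and Tead4 are transcription factors that bind the MCAT motif and act with the co-activators Yap and Taz.

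The 24 libraries held between 25453830 and 52784510 counts on genes. The median count per library was 10897 for the median cytosolic member and 1395 for the median mitochondrial member, so counting error was small for nearly all members. The lowest were Rpl39l, with 0 to 45 counts in a library, Mrpl53, with 2 to 17, and Rpl3l, with 0 to 444. Tead4, in counts scaled to library size (CPM, with TMM factors over all libraries), was 64.2 and 59.5 in the siControl PMs at day 0, then 194 and 197 (day 3) and 163 and 173 (day 6). In siTead1/4 PMs it was 13.2 and 11.1, 30.6 and 35.2, and 40.8 and 59.2 on the same days. The groups did not overlap on any day, and the fall passed the test on each (log2 fold changes -2.36, -2.58 and -1.75). In C2C12 cells Tead4 also fell at days 0 and 3 (-2.21 and -1.76, adjusted p = 0.036 and 0.0425, edgeR), while the day 6 difference of -1.28 did not pass (adjusted p = 0.318). Tead1 fell in PMs at days 0 and 3 (log2 fold changes -1.44 and -1.68). Its PM difference at day 6 was -1.10 (adjusted p = 0.143). In C2C12 cells Tead1 did not pass on any day, with 70.5 and 113 CPM in siControl against 28.9 and 4.50 CPM in siTead1/4 cells at day 0, then 95.6 and 151 against 66.9 and 51.1 (day 3) and 76.0 and 136 against 70.6 and 77 (day 6). The replicates of the silenced C2C12 cells were unequal at day 0, and silencing at day 6 was not resolved.

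Transcription start windows are shown for some of the members on which later paragraphs turn, since the pyrimidine tract is the feature by which cytosolic ribosomal protein messages are known. They are the first RefSeq start site listed for each gene on GRCm38.p6, with 10 bases before the start and 20 from the start onwards. Capitals mark the tract, searched as a C followed by at least 6 pyrimidines on the sense strand within 10 bases of the start. Rps6, the small-subunit protein phosphorylated by S6 kinase, was chosen after its sequence was seen, as a plain example of a tract at the start.
Rps6: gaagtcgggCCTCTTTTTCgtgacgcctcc
Rps27: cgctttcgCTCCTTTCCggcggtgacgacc
Rps27l: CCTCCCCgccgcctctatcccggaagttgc
Rpsa: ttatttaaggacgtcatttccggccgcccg
Rpl3l: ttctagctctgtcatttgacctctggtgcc
Mrpl12: gCCTCCTCCCggatagagcgtcgcttccgc
Mrps6: tcgccgtccgggagctgaccggccgtgttc
Mrpl43: ggaagtcaccggttagtcccgccccccggc
The Rps6 window lies at chr4:86857348-86857377 on the minus strand, Rps27 at chr3:90213629-90213658 (minus), Rps27l at chr9:66946076-66946105 (plus), Rpsa at chr9:120127756-120127785 (plus) and Rpl3l at chr17:24727816-24727845 (plus). The mitochondrial windows lie at chr11:120484627-120484656 (Mrpl12, plus), chr16:92058326-92058355 (Mrps6, plus) and chr19:45006423-45006452 (Mrpl43, minus). In Rps6 and Rps27 the tract runs across the start site, whereas the tracts of Rps27l and Mrpl12 lie entirely upstream of it. Windows of Rpsa, Rpl3l, Mrps6 and Mrpl43 hold no such run at the start used, and any other listed start of these genes is not shown. Windows of Rps2, Rpl12, Rpl4, Mrpl20, Mrps23, Mrpl14 and Mrpl35 were read in the same way and are not shown. None of them held such a run, so the windows shown overstate how common the tract was among those read.

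RefSeq promoter windows, from 250 bases before to 50 after the start, were found for 59 of the 80 cytosolic and 64 of the 73 mitochondrial members. A pyrimidine run by the search above was present in 29 cytosolic genes (49.2%) and 7 mitochondrial genes (10.9%), and in 14.1% of all 27025 genes with a window. The search also counted runs entirely upstream of the start, as in Rps27l and Mrpl12, which a message from that start would not hold. Shorter runs were not counted. These shares are therefore not shares of messages that begin with the tract. The ETS motif CCGGAAG, on either strand, occurred in 42.4% of the cytosolic and 32.8% of the mitochondrial members against 9.93% of all genes. The palindromic NRF1 motif is bound by a regulator of nuclear genes for mitochondrial proteins. It occurred in only 2 cytosolic genes (3.39%) and 3 mitochondrial genes (4.69%), against 1.07% of all genes, too few for a reading. The E box CACGTG was found in 10.2% and 6.25% against 8.09%. MCAT motifs, searched as CATTCCA or CATTCCT on both strands, were found in 3 cytosolic genes (5.08%) and 7 mitochondrial genes (10.9%), against 10.65% of all genes. These are letter matches in a window, and the ETS and tract searches can overlap in the start region.

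Cytosolic ribosomal protein messages took up a smaller share of all counts in differentiated cells, and the mitochondrial share was also lower at day 3. In siControl PMs the 80 cytosolic genes received 3.45% and 3.55% of all counts at day 0 (the 2 replicates), then 1.93% and 2.09% (day 3) and 1.76% and 1.92% (day 6). Their share in siControl C2C12 cells was 4.32% and 3.40%, 2.45% and 2.11%, and 2.57% and 2.11% on the same days. In both cell types day 0 lay above both later days without overlap, and days 3 and 6 lay close together. The mitochondrial share in siControl PMs was 0.344% and 0.339% at day 0, then 0.311% and 0.300% (day 3) and 0.271% and 0.263% (day 6). In siControl C2C12 cells it was 0.355% and 0.295%, 0.255% and 0.222%, and 0.280% and 0.246%. Cytosolic counts per mitochondrial count fell accordingly, from 10.3 ± 0.307 (mean ± SD, n = 2) at day 0 to 6.58 ± 0.529 at day 3 in siControl PMs, where the replicates were 10.0 and 10.5 against 6.21 and 6.96. In C2C12 siControl cells they were 12.2 and 11.5 at day 0, then 9.62 and 9.52 (day 3) and 9.19 and 8.60 (day 6). The ratio was lower on both later days in each cell type, and the siControl PM values at days 3 and 6 (6.21 to 7.32) lay below every siControl C2C12 value.

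**Figure D1:**
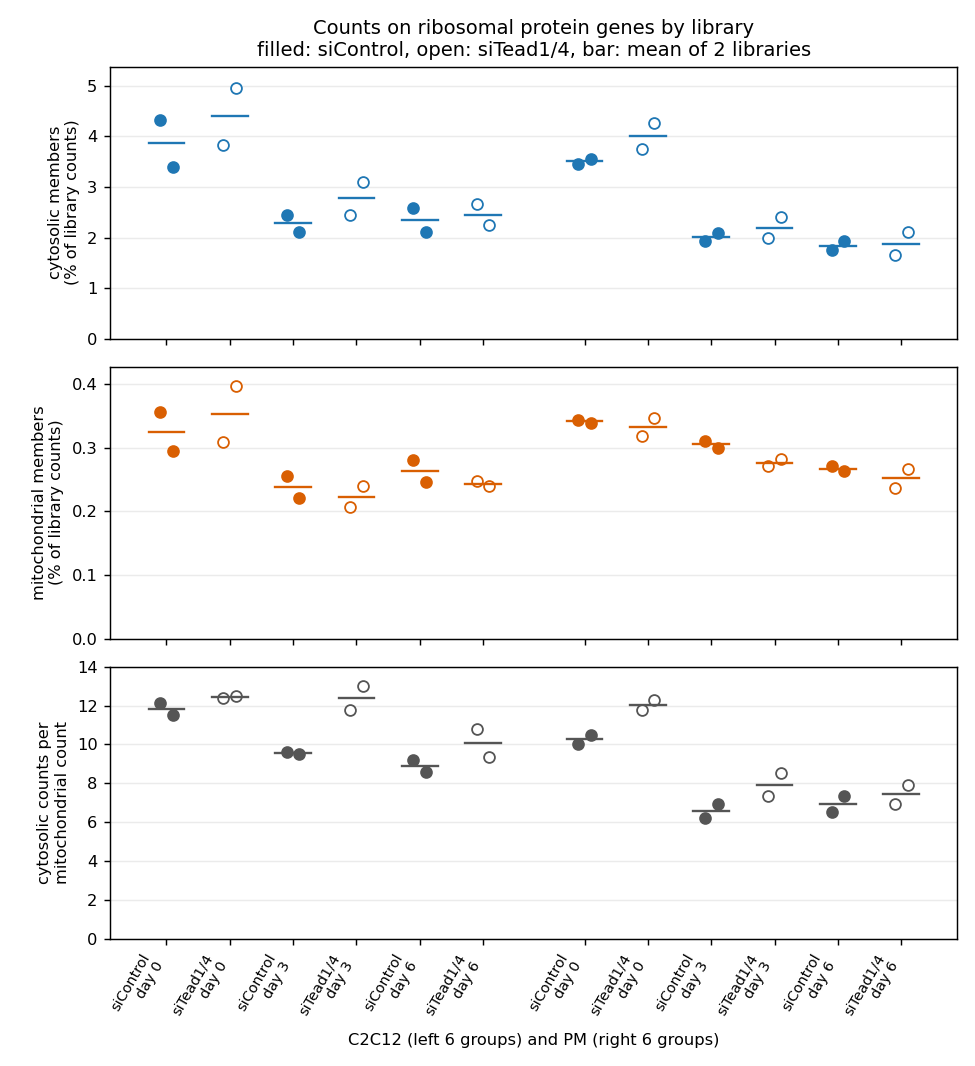
Percent of all counts on cytosolic (upper panel) and mitochondrial (middle panel) ribosomal protein genes, and cytosolic counts per mitochondrial count (lower panel), for each library, with C2C12 groups on the left, PM groups on the right, filled points for siControl, open points for siTead1/4 and bars at the mean of 2 libraries. The cytosolic share of siControl PMs lies at 3.45% and 3.55% at day 0 and between 1.76% and 2.09% afterwards.

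A share depends on what else is expressed. The 10 muscle markers summed to 1.40% of counts in siControl PMs at day 0 and 4.17% at day 3, and to 0.113% and 2.30% in siControl C2C12 cells. Over the same step the 50 most abundant genes went from 12.5% to 22.0% of counts in PMs and from 12.0% to 14.9% in C2C12 cells. Summed CPM of 8 fibroblast markers went from 421 and 296 at day 0 to 2499 and 2838 (day 3) and 6886 and 5304 (day 6) in siControl PMs. In siControl C2C12 cells the same sum went from 922 and 1202 to 1515 and 1765 (day 3) and 1485 and 1368 (day 6). Tcf21, also in the fibroblast list, was at 0 in every group, and Lum and Thy1 were at 0 in siControl C2C12 cells at day 0. The other marker sums were small, with 6.50 to 27.4 CPM in PMs and 0.366 to 4.03 CPM in C2C12 cells for 7 endothelial genes (Emcn at 0 in every C2C12 group). Macrophage genes (7 of the 8 listed were in the table) summed to 3.06 to 9.35 CPM, 6 Schwann cell genes to 16.2 to 33.3 in PMs and 52.1 to 118 in C2C12 cells, and 5 adipocyte genes to at most 1.70. The part of these shifts in the ribosomal protein results was not tested. In bulk RNA, fewer cells of a type and less RNA per cell cannot be told apart.

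Between day 0 and day 3 most cytosolic ribosomal protein genes fell in PMs, while fewer passed the test in C2C12 cells. In siControl PMs 68 of 80 fell and 1 rose at an adjusted p under 0.05 (edgeR quasi-likelihood test, adjusted over 16144 genes, of which 29.1% fell and 29.7% rose). In C2C12 cells 32 of 79 tested members fell and 1 rose, against 19.0% and 20.6% of 15303 genes. The median log2 fold change was -0.51 in PMs and -0.63 in C2C12 cells, beside 0.01 and -0.01 over all genes, and 78 members were lower at day 3 in each. Few fell by more than 2-fold, with 4 members in PMs (14.9% of all genes) and 6 in C2C12 cells (12.7%). All 32 genes called lower in C2C12 cells were among the 68 called in PMs (47.1% of these). Falls were spread over both subunits in PMs, with 29 of 32 small-subunit and 39 of 48 large-subunit genes. The C2C12 count depended on each library, being 3 without day 0 replicate 1, 20 without day 0 replicate 2, 7 without day 3 replicate 1 and 2 without day 3 replicate 2. The PM count was 38 without day 0 replicate 1 and 35 without day 3 replicate 1, and no other library moved it by over 1.5 times.

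Rpsa, a small-subunit protein also known as the laminin receptor, showed the largest fall among the cytosolic genes of C2C12 cells. It was at 982 and 698 CPM at day 0, then 371 and 328 (day 3) and 370 and 388 (day 6) in siControl cells (log2 fold change -1.31, SE 0.256, adjusted p = 0.00282 for day 3 against day 0). In PMs it was at 635 and 606, 341 and 363, and 315 and 326 (-0.87 at day 3). Day 0 stood above the later days in every library of both cell types. Rps2, a core small-subunit protein, was at 866 and 815 CPM in PMs at day 0 and 398 and 388 at day 3 (-1.15, SE 0.135, adjusted p = 3.77e-05). In C2C12 cells it was at 792 and 632, and then 339 and 302 (-1.19, SE 0.248, adjusted p = 0.00386). Rpl12, at the base of the ribosomal stalk, fell by 1.14 on the log2 scale in PMs (465 and 484 CPM to 211 and 237) and by 1.11 in C2C12 cells (691 and 526 CPM to 312 and 267). The stalk proteins Rplp0, Rplp1 and Rplp2, which recruit the elongation factors, fell together, by 0.65, 0.75 and 0.60 in PMs and by 1.02, 0.90 and 0.86 in C2C12 cells, all past the test. Rpl3, next to the peptidyl transferase centre, had the largest fall among the cytosolic genes of PMs, from 629 and 592 CPM to 238 and 301 (-1.24, SE 0.177, adjusted p = 0.000153). In C2C12 cells it went from 674 and 571 CPM to 391 and 366 (-0.76, adjusted p = 0.0114). Rps6, whose start window is shown above, fell by 0.62 in PMs (adjusted p = 0.0017) and 0.61 in C2C12 cells (adjusted p = 0.0457).

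In PMs 11 cytosolic genes passed in neither direction. Rpl24 differed least, with a log2 fold change of -0.08 (SE 0.101, adjusted p = 0.545). Among the others, Rpl23, Rpl26, Rpl36, Rpl37, Rpl37a, Rps15, Rps20 and Rps27 had values between -0.24 and -0.47 and adjusted p-values from 0.0552 to 0.223, and the scarce paralogue Rpl39l was also not called. A p above the threshold does not show that these genes kept their level.

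Calls on mitochondrial ribosomal protein genes went in both directions in PMs and only downwards in C2C12 cells. In each direction their share lay below that of all genes. In siControl PMs 19 of 73 rose and 13 fell between day 0 and day 3 (29.7% and 29.1% of all genes), with a median log2 fold change of 0.08. Scaling by total counts changed this split to 6 rises and 26 falls and the median to -0.13, in a comparison where that scaling lowered the median of all genes by 0.21. In C2C12 cells 10 of 72 fell and 0 rose (19.0% and 20.6% of all genes), with a median of -0.37, 61 genes lower and 22 with an unadjusted p under 0.05, and DESeq2 called 10 falls and 0 rises. With total counts 21 fell. Rises in PMs were 8 without day 0 replicate 2 and 11 without day 3 replicate 1, while falls were 6 without day 0 replicate 1, 8 without day 3 replicate 1 and 7 without day 3 replicate 2. In C2C12 cells 6 fell without day 0 replicate 2 and 2 without any other of the 4 libraries. Calls in PMs lay in both subunits, where 5 small-subunit genes rose and 5 fell of 26, and 14 large-subunit genes rose and 8 fell of 47.

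Mrpl43, a large-subunit protein, rose most among the mitochondrial genes of PMs, from 35.1 and 34.5 CPM to 70.4 and 61.5 (log2 fold change 0.87, SE 0.101, adjusted p = 3.43e-05). In C2C12 cells it was at 40.2 and 36.8 CPM at day 0 and 46.7 and 37.7 at day 3 (0.09, adjusted p = 0.773). Those C2C12 groups overlapped, whereas the PM groups were far apart. Mrps23, a small-subunit protein, followed the same course, from 56.2 and 49.3 to 107 and 91.1 CPM in PMs (0.86, SE 0.116, adjusted p = 0.000104), with 56.1 and 48.4 against 57.9 and 56.6 CPM in C2C12 cells (0.09, adjusted p = 0.795). Mrps34, a small-subunit protein, rose in PMs from 11.3 and 9.55 to 18.8 and 17.0 CPM (0.72, adjusted p = 0.00905). Other rises included Mrpl44 and Mrpl37 (0.62 and 0.60).

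Mrps6, a small-subunit protein, fell most in PMs and fell in both cell types. It was at 60.9 and 61.9 CPM at day 0 and 26.0 and 21.0 at day 3 in PMs (-1.44, SE 0.116, adjusted p = 2.86e-06), and at 51.2 and 53.7 and then 25.5 and 26.1 in C2C12 cells (-1.07, SE 0.358, adjusted p = 0.0372). Mrpl20, a large-subunit protein, went from 73.5 and 63.0 to 30.3 and 25.2 CPM in C2C12 cells (-1.34, SE 0.230, adjusted p = 0.00135), and its smaller fall in PMs was 0.61, from 51.8 and 50.9 to 36.0 and 34.1 CPM. These and Mrpl19, Mrpl40 and Mrps5 were the 5 genes called lower in both cell types (50% of the C2C12 and 38.5% of the PM falls), and no gene was called in opposite directions. Mrpl12, a large-subunit protein that also binds the mitochondrial RNA polymerase, fell in C2C12 cells from 161 and 116 to 63.8 and 61.6 CPM (-1.18, adjusted p = 0.00836). In PMs it was at 146 and 135 and then 136 and 120 CPM (-0.19, adjusted p = 0.127).

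**Figure D2:**
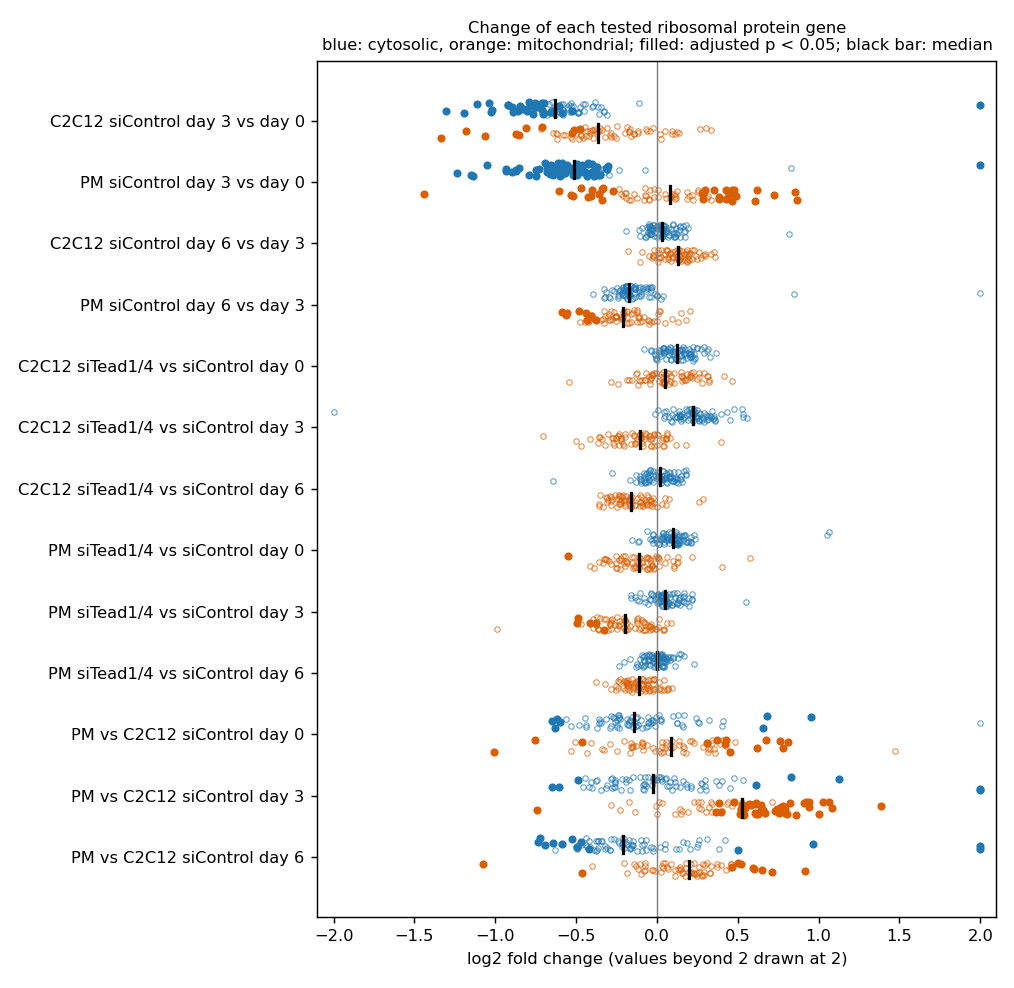
Log2 fold change (horizontal axis) of each tested ribosomal protein gene in the 13 comparisons listed on the vertical axis, with cytosolic genes in blue, mitochondrial genes in orange, filled points past an adjusted p of 0.05, black bars at the medians and values beyond 2 drawn at 2. For day 3 against day 0 the medians are -0.63 in C2C12 cells and -0.51 in PMs for cytosolic genes, and -0.37 and 0.08 for mitochondrial genes.

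After day 3 the cytosolic genes showed no further call and some mitochondrial genes of PMs fell. In siControl C2C12 cells no gene of any kind passed at day 6 against day 3 in edgeR (0.0% of all genes), where 406 genes but 0 members had an unadjusted p under 0.05. DESeq2 called 19 genes higher and 0 lower there, none of them a member. Median log2 fold changes in C2C12 cells were 0.03 for cytosolic and 0.13 for mitochondrial genes. In siControl PMs 0 of 80 cytosolic genes passed (3.71% of all genes rose and 2.54% fell), although 75 were lower, with a median of -0.17, 5 unadjusted p-values under 0.05 and 1 fall by DESeq2. Mitochondrial genes of PMs fell in 8 of 73 cases and rose in none (30 unadjusted, median -0.21), and DESeq2 called 18 falls. More fell with the replicate number as a block, as given in the closing section. Mrps22, a small-subunit protein, went from 49.7 and 44.5 to 32.6 and 30.7 CPM (-0.58, SE 0.128, adjusted p = 0.0267). Mrps35 went from 36.4 and 32.5 to 24.6 and 22.3 CPM (-0.56, adjusted p = 0.0186), and Mrps2 from 52.4 and 47.4 to 33.5 and 34.8 (-0.56, adjusted p = 0.0133). Each lay lower in both day 6 libraries than in both day 3 libraries. The other 5 were Mrpl12, Mrpl9, Mrps27, Mrpl37 and Mrpl3, and of these Mrpl9 and Mrpl37 had risen by day 3. The count of 8 was 0 without day 3 replicate 1, 2 without day 6 replicate 1, 3 without day 3 replicate 2 and 1 without day 6 replicate 2.

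Rpl3l, the paralogue of Rpl3 known from skeletal muscle and heart, was the member whose level changed most. Its annotated gene lies at chr17:24864774-24873094 (mm9, ENSMUSG00000002500), and Rpl3 at chr15:79908211-79913836 (ENSMUSG00000060036). Rpl3l had 1 and 1 counts in siControl PMs at day 0, then 161 and 227 (day 3) and 293 and 280 (day 6). The ratio of day 3 to day 0, on scaled library sizes, was 213 with an exact 95% interval from 58.6 to 1767, which covers counting error only. In siControl C2C12 cells it had 1 and 1, 10 and 9, and 15 and 14 counts, and the ratio of day 3 to day 0 was 9.50 (2.29 to 84.1). These rises were the only cytosolic rises called in either cell type between day 0 and day 3 (adjusted p = 6.67e-07 and 0.0116). The C2C12 rise was not called by DESeq2, nor in edgeR without day 0 replicate 1, day 0 replicate 2 or day 3 replicate 1. Per kilobase, Rpl3l reached 1.62% and 1.63% of the level of Rpl3 in siControl PMs at day 3 and 3.26% and 2.76% at day 6, against 0.0674% and 0.113% in C2C12 cells at day 6. So Rpl3 remained the far more abundant message in every library. The medians of the cytosolic genes given above were the same, -0.51 and -0.63, with Rpl3l set to the lower end of its interval.

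In silenced PMs Rpl3l had 3 and 2, 209 and 287, and 444 and 290 counts, which overlapped the siControl libraries at days 3 and 6 (day 3 log2 fold change 0.17, adjusted p = 0.761). In silenced C2C12 cells it had 2 and 0, 1 and 2, and 6 and 13 counts. The day 3 siControl level was 5.59 times the silenced level by counts (95% interval 1.65 to 29.5), a difference that did not pass in edgeR (adjusted p = 0.152). Over all 24 libraries the genes with the most similar log2 CPM pattern, among 12794 with a mean of at least 1 CPM, were Pla2g4e, Abcb4, Ddo, Gm4980 and Kcna7 (Pearson r from 0.985 to 0.979). These libraries share cell type and day, so the correlation is a description only.

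The other paralogue pairs behaved differently. Rps27l, a homologue of Rps27 known as a p53 target, fell where Rps27 was not called. It went from 174 and 166 to 97.0 and 88.3 CPM in PMs (-0.93, SE 0.111, adjusted p = 4.14e-05) and from 156 and 128 to 77.6 and 64.5 CPM in C2C12 cells (-1.04, SE 0.232, adjusted p = 0.00561). Rps27 was at 189 and 179 and then 143 and 159 CPM in PMs (-0.34, adjusted p = 0.116), and at 192 and 171 and then 192 and 153 in C2C12 cells (-0.11, adjusted p = 0.776). The difference between the paralogues was not tested. Rpl39 went from 212 and 214 to 150 and 154 CPM in PMs (-0.54, adjusted p = 0.00483), and from 255 and 211 to 207 and 170 in C2C12 cells (-0.35, adjusted p = 0.262). Rpl39l, a paralogue best known from testis, had 45 and 10 counts in siControl PMs at day 6 and 1 and 0 in C2C12 cells, a ratio of 73.1 with a 95% interval from 12.6 to 2938. The 2 PM values differed by more than 4-fold from each other. Rpl10 fell in PMs (-0.67, adjusted p = 0.00696) and was at -0.45 in C2C12 cells (adjusted p = 0.185).

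**Figure D3:**
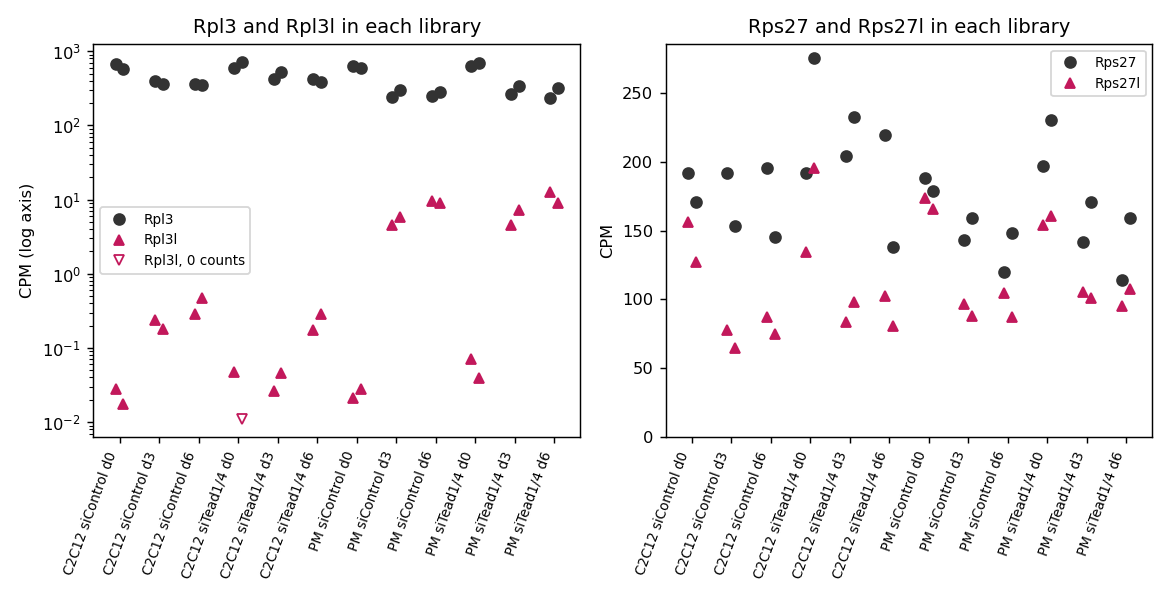
CPM of Rpl3 and Rpl3l on a log axis (left) and of Rps27 and Rps27l on a linear axis (right) in each library of the 12 groups, where an open triangle marks a library with 0 counts. Rpl3l climbs from 0.0212 and 0.0282 CPM in siControl PMs at day 0 to 4.52 and 5.74 at day 3, while Rpl3 falls from 629 and 592 to 238 and 301 CPM.

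After Tead1/4 silencing no cytosolic gene passed the test on any day in either cell type, and a few mitochondrial genes of PMs fell. For cytosolic genes the unadjusted p was under 0.05 for 0 of 80 in PMs on each day, and for 0, 1 and 0 of 79 in C2C12 cells at days 0, 3 and 6. DESeq2 called 0 cytosolic genes throughout. Of all genes, 7.72%, 7.33% and 1.26% passed in silenced PMs on the 3 days, and 0.444%, 1.35% and 0.0457% in silenced C2C12 cells. Cytosolic medians were 0.10, 0.05 and 0.00 in PMs and 0.12, 0.22 and 0.02 in C2C12 cells (0.02, 0.01 and 0.01 over all genes). Those higher after silencing were 68, 63 and 41 of 80 in PMs and 71, 77 and 45 of 79 in C2C12 cells. Of all genes 7929, 8207 and 8104 of 16144 were higher in PMs, and 7951, 7783 and 7880 of 15303 in C2C12 cells. The SD of the library median of cytosolic genes between replicates, in log2 CPM, was 0.144 in PMs and 0.24 in C2C12 cells. Each cytosolic median after silencing was smaller than the SD of its cell type. In C2C12 cells 27 of 79 cytosolic genes had both silenced libraries above both siControl libraries at day 3, where 21.0% of all genes did. At days 0 and 6 the counts were 0 (18.2% of all genes) and 3 (19.1%). In PMs they were 30 of 80 at day 0 (27.4%), 13 at day 3 (26.7%) and 0 at day 6 (18.5%).

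Mitochondrial genes leaned downwards in silenced PMs, and by less than the replicate spread in silenced C2C12 cells at days 3 and 6. By the test 5 of 73 fell at day 3 (3.43% of all genes fell), 66 were lower, 28 had an unadjusted p under 0.05, the median was -0.20 (0.01 over all genes) and DESeq2 called 13 falls. The count at day 0 was 1 (4.31%), 58 were lower, the median was -0.11 and DESeq2 called 5 falls and 1 rise. With the replicate number as a block more fell at days 0 and 3, as given in the closing section. None passed at day 6 (0.458% of all genes fell), with 63 lower, 5 unadjusted p-values under 0.05, a median of -0.11 and 1 fall by DESeq2. Both silenced libraries lay below both siControl libraries for 37, 50 and 29 of 73 genes at days 0, 3 and 6, beside 30.8%, 25.7% and 18.2% of all genes. In C2C12 cells 0 of 72 passed on any day, with 1, 2 and 0 unadjusted p-values under 0.05 and 1 fall by DESeq2 at day 3. There 25, 57 and 66 of 72 were lower at days 0, 3 and 6, and medians were 0.05, -0.11 and -0.16. Of all 15303 genes 7271, 7514 and 7416 were lower. The SD of the library median of mitochondrial genes between replicates was 0.190 in C2C12 cells, more than the size of each of these medians. In PMs that SD was 0.0674. Members of 1 library are not independent, so the counts of lower genes carry no test. In both libraries 5, 23 and 32 genes lay below (17.9%, 25.5% and 20.5% of all genes). The 5 calls of PMs at day 3 were 1 without siControl replicate 2 and 0 without any other of the 4 libraries, and 2 with scaling by total counts. The day 0 call was lost without either siControl library or siTead1/4 replicate 1.

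Mrpl12 fell most among the 5 genes called at day 3. It was at 136 and 120 CPM in siControl PMs and 90.8 and 91.8 in silenced PMs (-0.50, SE 0.102, adjusted p = 0.0167). On day 0 it was at 146 and 135 against 111 and 120 CPM, and on day 6 at 94.6 and 90.4 against 67.0 and 75.4, so the groups did not overlap on any day, although only day 3 passed. Mrps9, a small-subunit protein, was at 49.5 and 49.2 against 32.1 and 35.7 CPM at day 0 (-0.55, SE 0.103, adjusted p = 0.0120) and 42.1 and 42.9 against 29.8 and 31.2 at day 3 (-0.49, adjusted p = 0.0202). At day 6 it was at 35.0 and 36.9 against 26.8 and 30.8 CPM (-0.32, adjusted p = 0.215). Mrps2 was at 52.4 and 47.4 against 37.6 and 37.8 CPM at day 3 (-0.41, adjusted p = 0.0342). The other 2 were Mrpl9 (-0.38, adjusted p = 0.0329) and Mrpl44 (-0.33, adjusted p = 0.0499).

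In C2C12 cells at day 3 Mrpl12 was at 63.8 and 61.6 CPM in siControl and 48.2 and 69.2 in silenced cells, which overlapped. Its log2 fold change there was -0.12 (adjusted p = 0.909). In the test of whether the effect of silencing differed between PMs and C2C12 cells, 0 members passed by edgeR on any day. The number of members with an unadjusted p under 0.05 in that test was 0 at days 0 and 6 and 1 cytosolic and 1 mitochondrial gene at day 3, and DESeq2 called 0. Over all genes 0.00591%, 1.31% and 0.0354% passed.

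After silencing, cytosolic counts per mitochondrial count were mostly higher than in siControl cells. They were 11.8 and 12.3 in silenced PMs at day 0, then 7.34 and 8.52 (day 3) and 6.95 and 7.93 (day 6). In silenced C2C12 cells they were 12.4 and 12.5, 11.8 and 13.0, and 10.8 and 9.35. Both silenced libraries exceeded both siControl libraries in 5 of the 6 comparisons, and the PM libraries overlapped at day 6. There each silenced library was above the siControl library of its replicate number (6.95 against 6.50 and 7.93 against 7.32). The cytosolic share alone was higher without overlap in 1 of 6, and the mitochondrial share was lower without overlap in 1 of 6. These summed values carry no test. In silenced C2C12 cells at day 3 the muscle markers took 1.04% of counts against 2.30% in siControl cells, and the fibroblast markers summed to 4494 and 2057 CPM against 1515 and 1765. In silenced PMs at day 3 the muscle markers took 4.08% against 4.17%, and the 7 endothelial markers summed to 27.4 and 13.5 CPM against 19.7 and 6.50. At day 0 the endothelial sums were 26.2 and 12.1 against 15.5 and 7.35 CPM. The groups overlapped on both days, although each silenced sum lay above the siControl sum of its replicate number. Of the 7 genes 1 was called higher on each day, Tek at day 0 (1.5) and Vwf at day 3 (1.75). The median log2 fold change of the 7 was 0.43 at day 0 and -0.73 at day 3. For the 6 fibroblast genes tested in silenced C2C12 cells at day 3 it was -0.26, with 0 called. At day 3 these medians and the sums above differed in direction. The part of these markers in the result was not tested.

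Most mitochondrial genes were higher in PMs than in C2C12 cells at day 3. Cell type cannot be told apart here from strain, medium and coating. In siControl cells at day 3, 41 of 73 mitochondrial genes were higher in PMs than in C2C12 cells and 1 was lower (24.0% and 21.9% of 16926 genes), with 67 higher and a median log2 difference of 0.53 (0.03 over all genes). Scaling by total counts gave 30 higher and 1 lower and a median of 0.37. The 41 comprised 15 of 26 small-subunit and 26 of 47 large-subunit genes, and 5 were over 2-fold higher (17.2% of all genes). The count was 23 without PM replicate 1 and 21 without C2C12 replicate 2. On day 0 the counts were 10 higher and 3 lower (21.4% and 18.7% of all genes; median 0.09), and on day 6 they were 8 higher and 2 lower (20.4% and 17.5%; median 0.20). Leaving out 1 library gave 3 to 7 higher and 1 to 4 lower genes at day 0, and 1 to 5 higher and 1 lower at day 6. Without C2C12 day 0 replicate 2 the day 0 median was -0.07.

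Mrpl35, a large-subunit protein, differed most at day 3, with 37.0 and 37.1 CPM in PMs and 15.0 and 13.4 in C2C12 cells (1.38, SE 0.184, adjusted p = 1.45e-05). Mrpl37 was at 125 and 108 against 57 and 52.8 CPM (1.09, adjusted p = 5.46e-05), and Mrps35 at 36.4 and 32.5 against 17.1 and 15.8 (1.07, adjusted p = 8.22e-05). Mrpl14, a large-subunit protein, went the other way on every day, with 20.6 and 19.5 against 41.8 and 38.9 CPM at day 0 (-1.01, SE 0.244, adjusted p = 0.00322), -0.74 at day 3 and -1.08 at day 6. Mrpl3, the mitochondrial counterpart of Rpl3, was higher in PMs at day 0 (0.81, SE 0.144, adjusted p = 0.000244), as were Mrps14 and Mrpl35 (0.78 and 0.76). Among the genes called higher in PMs at day 6, Mrpl35, Mrps12 and Mrpl48 differed most (0.92, 0.71 and 0.65). Mrpl52 (-0.75) was lower in PMs at day 0, and Mrpl13 was lower at days 0 and 6 (-0.46 on both).

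Few cytosolic genes differed between the cell types. At days 0, 3 and 6, 3, 5 and 4 of 80 were higher in PMs and 4, 3 and 10 were lower, where between 17.5% and 24.0% of all genes passed in each direction. Scaling by total counts gave 4 higher and 12 lower at day 3, and 3 higher and 23 lower at day 6. The medians were -0.14, -0.02 and -0.21. The counts of lower genes ranged from 0 to 8, 0 to 2 and 0 to 6 as libraries were left out 1 at a time. Rpl26, near the exit of the peptide tunnel, was higher in PMs on each day, with 293 and 269 CPM against 160 and 130 at day 0 (0.96, SE 0.177, adjusted p = 0.000371), 1.13 at day 3 and 0.96 at day 6. Rpl29 was also higher on each day (0.68, 0.83 and 0.50), and Rps3a at day 0 (0.66). Rpl30 (-0.65, -0.65 and -0.74) was lower on each day, as was Rps12 at days 3 and 6 (-0.61 and -0.72), while Rpl8 was lower at days 0 and 6 (-0.63 and -0.69) and Rps15 at day 0 (-0.62). Rpl3 was lower in PMs at day 3 (-0.49, adjusted p = 0.0358). Rpl3l was higher at days 3 and 6, by 4.61 (SE 0.400) and 4.65 (SE 0.387) on the log2 scale.

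The change from day 0 to day 3 itself differed between the cell types for 8 mitochondrial genes and for 0 cytosolic genes by edgeR. All 8 were more positive in PMs (4.99% of all genes were, and 8.57% were more negative), and 67 of 73 mitochondrial genes leaned that way with a median difference of 0.41. For 28 of them the unadjusted p was under 0.05, and DESeq2 called 14. Of the cytosolic genes 1 had an unadjusted p under 0.05, DESeq2 called 1 and the median difference was 0.11. All 8 were assigned by symbol to the large subunit, as were 47 of the 73 genes tested, and whether the subunits differed was not tested. Of the 26 small-subunit genes 24 leaned the same way, 9 with an unadjusted p under 0.05, and their median was 0.33 against 0.43 for the large subunit. The 8 were Mrpl9 (0.67, SE 0.162, adjusted p = 0.0103), Mrpl43 (0.79), Mrpl18 (0.81), Mrpl12 (1.0), Mrpl42 (0.68), Mrpl37 (0.73), Mrpl51 (0.88) and Mrpl39 (0.51). They were not alike in course, since Mrpl43, Mrpl9, Mrpl37, Mrpl42, Mrpl51 and Mrpl39 rose in PMs, whereas Mrpl12 and Mrpl18 fell in C2C12 cells and were not called in PMs. Mrpl9 was at 81.3 and 77.2 CPM at day 0 and 112 and 103 at day 3 in PMs, and at 78.2 and 70.7 and then 67.8 and 59.6 in C2C12 cells. Mrpl51 went from 65.1 and 60.1 to 93.5 and 81.1 CPM in PMs and was at 67.8 and 54.5 and then 48.1 and 44.2 in C2C12 cells. The count of 8 was between 0 and 4 whichever of the 8 libraries was left out, and 1 with scaling by total counts, which gave a median difference of 0.24. The muscle markers of the 2 cell types also differed at day 0 (1.40% of counts in PMs and 0.113% in C2C12 cells), so that day 0 was not the same starting state, and the part of this in the result was not tested.

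**Figure D4:**
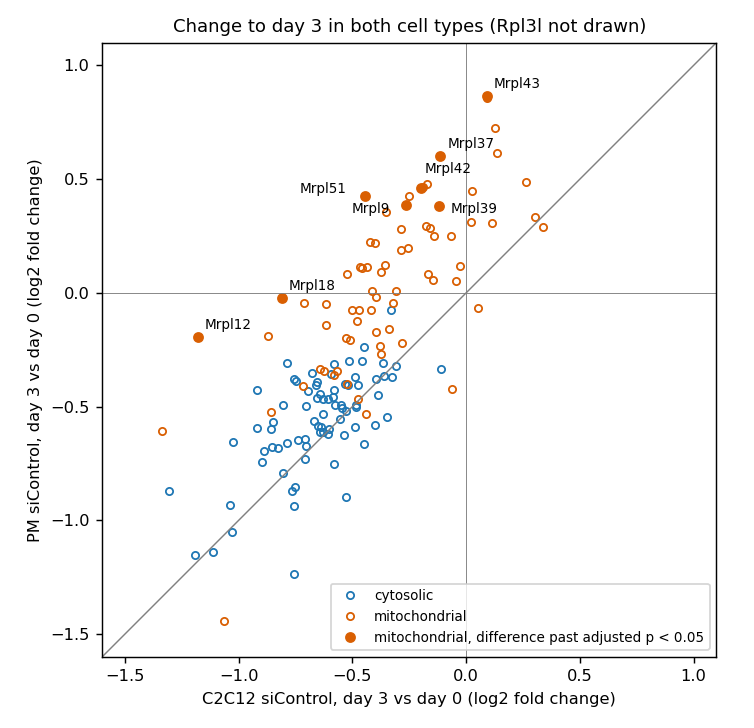
Log2 fold change from day 0 to day 3 in siControl C2C12 cells (horizontal axis) and siControl PMs (vertical axis) for each gene tested in both, Rpl3l not drawn, with cytosolic genes in blue, mitochondrial genes in orange, the 8 genes whose change differed between the cell types filled and named, and the diagonal marking equal change. The cytosolic genes sit below 0 on both axes, while the mitochondrial genes spread around 0 in PMs and mostly below it in C2C12 cells, with medians of 0.08 and -0.37.

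Lists of genes that build or serve the ribosomes were counted in the same tests, in which 19.0% of all genes fell and 20.6% rose in C2C12 cells between day 0 and day 3, and 29.1% fell and 29.7% rose in PMs. Of 54 ribosome biogenesis genes, which make and process ribosomal RNA, 39 fell in C2C12 cells and 41 in PMs between day 0 and day 3, with 1 rise in PMs (medians -1.01 and -0.76). Nop56, a core box C/D ribonucleoprotein component, fell by 2.36 in C2C12 cells, and the nucleolar protein Npm1 fell by 2.14 in PMs, while Rrp12 rose there by 0.59. In silenced PMs 14 of these genes fell at day 0 (median -0.28), beside 4.31% of all genes, Nop58 by 0.57, and 1 fell at day 3 (3.43% of all genes), Rrp12 by 1.08. A further list held 22 genes of translation elongation and the terminal oligopyrimidine class, for which no tract result is given. Of these 10 fell and 3 rose in PMs, and 6 of 21 fell in C2C12 cells (medians -0.36 and -0.40). Eef1a2, the elongation factor form of mature muscle, rose by 3.64 in PMs and fell by 2.74 in silenced PMs at day 3. Vim, an intermediate filament gene, fell by 2.29 in PMs and Hnrnpa1, an RNA-binding protein gene, by 1.76 in C2C12 cells.

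Of 32 mitochondrial translation and ribosome assembly genes 17 rose and 5 fell in PMs between day 0 and day 3 (median 0.32), and 3 rose and 5 fell of 31 in C2C12 cells (median -0.17), where the background shares were those just given. At day 3 22 of the 32 were higher in PMs than in C2C12 cells and 0 lower (median 0.56), beside 24.0% and 21.9% of all genes, and in the test of the differing change 3 were more positive in PMs (4.99% of all genes), among them Tfb1m, a methyltransferase of mitochondrial ribosomal RNA (1.20). Lrpprc, which stabilises mitochondrial messages, fell in PMs after day 3 (-0.83) and in silenced PMs at day 3 (-0.66), where 3 of the list fell (3.43% of all genes). Of 10 mitochondrial ribosomal proteins with other symbols 4 fell in C2C12 cells (median -0.40), 1 rose in PMs (Mrp63, 0.28), and 4 were higher in PMs than in C2C12 cells at day 3 (Ptcd3, 1.31). Of the cytosolic ribosomal proteins with other symbols 2 of 6 fell in PMs and 2 of 5 in C2C12 cells, Rpl22l1 by 1.44 and 0.76. Between the cell types 1 of the 6, Rps4y2, was called higher in PMs at days 0, 3 and 6 (log2 differences 11.16, 10.82 and 11.05). Rpl7l1 was called lower in PMs at day 6 (-0.42). Both lists are small, and no reading is drawn from these counts. Among regulators of mitochondrial biogenesis there were 6 rises and 9 falls of 17 in PMs (Ppara 2.96, Mycl1 -1.68) and 4 rises and 4 falls of 16 in C2C12 cells (Ppargc1a 4.38, Pprc1 -1.11).

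Levels per kilobase, as means over the 12 groups, had medians of 294 CPM per kilobase for cytosolic and 24.2 for mitochondrial genes. Rplp1 was the highest cytosolic gene at 1195 and Rpl39l the lowest at 0.237, followed upwards by Rpl3l at 1.68. Mrpl52 was the highest mitochondrial gene at 116, and Mrpl53 the lowest at 0.288. Rps15a (49.8) and Rpl24 (51.9) were the lowest of the cytosolic genes other than those paralogues. Their values were divided by long annotated lengths, 5992 and 5784 bases. Their median counts per library, 11668.5 and 12126, lay above the 10897 of the median cytosolic member, so their rank does not show low counts. Processed copies also bear on the levels, since reads of a gene and a near-identical copy may not be told apart. The table held 160 rows for ribosomal protein pseudogenes, with 117113 counts over the 12 C2C12 libraries and 8896 over the 12 PM libraries. Adding their counts to the parent genes left all counts of calls given above within 1.5 times. Rpl3 in PMs against C2C12 cells became -0.61 (adjusted p = 0.0113) in place of -0.49 at day 3, and at day 6 it passed (-0.55, adjusted p = 0.0232) where the unmerged value of -0.44 had not (adjusted p = 0.0686).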

How the data were processed

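RNA-seq libraries were made by the authors with a poly-A kit that keeps no strand (TruSeq RNA v2). Per the submitters' processing notes, CASAVA 1.8.2, TopHat2 2.0.10, Bowtie2 2.1.0, HTSeq 0.6.1 and DESeq2 1.8.1 were used on genome build mm9; the HTSeq mode and annotation release are not given in the sources used here. Raw counts per gene, as deposited by the authors, were analysed. The 48 columns of deposited normalized values for these libraries were not used, nor were 36 columns of 12 libraries outside the sample list, nor fold changes and p-values of the authors' own comparisons. Gene lengths from the table scaled levels per kilobase.

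Groups came from the sample labels, with 2 biological replicates each, so p-values measure only the spread between these libraries. edgeR 4.0.16 (limma 3.58.1, R 4.3.3) was fitted to the 12 libraries of each cell type, and to all 24 for comparisons between cell types, with TMM factors, filterByExpr, 1 mean per group, quasi-likelihood tests and Benjamini-Hochberg adjustment over all genes tested (15303 in C2C12 cells, 16144 in PMs, 16926 in all). filterByExpr kept all 153 members except in C2C12 cells, where 79 cytosolic and 72 mitochondrial genes were tested. Biological coefficients of variation were 0.242 (C2C12) and 0.150 (PM). The fits were tested on simulated data. Alternatives were median-of-ratios and total count scaling, no filter, a replicate block, DESeq2 1.42.0 and leaving out each library; adding pseudogene counts to their genes was chosen after seeing the data, and 159 of 160 such rows matched a member.

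Members and gene lists were chosen with earlier results of these data known. Named genes were the paralogue pairs, the stalk genes and Rpsa, up to 3 members per ribosome with the largest rise and fall past the test at a mean of at least 1 CPM in each comparison, the highest and lowest per kilobase, and the largest rise and fall of each other list; Rps6, Rpl24, Rps15a, Mrpl44 and genes given to complete a count were added after their values were seen. Promoter windows were read from RefSeq (GRCm38.p6), and mm9 coordinates from the deposited table. Ratios of counts under 4 in a group carry exact 95% conditional intervals. Other tools were Python 3.11.15, pandas 2.3.3 and numpy 2.4.6.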

Additional observations from a re-analysis of the deposited data

Results flagged for a closer look

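The change from day 0 to day 3 in siControl cells differed between PMs and C2C12 cells, by the test of the difference itself, for 8 mitochondrial ribosomal protein genes. The difference (PM minus C2C12, log2) was 0.67 for Mrpl9, 0.79 for Mrpl43, 0.81 for Mrpl18, 1.0 for Mrpl12, 0.68 for Mrpl42, 0.73 for Mrpl37, 0.88 for Mrpl51 and 0.51 for Mrpl39, with adjusted p-values (edgeR) from 0.0103 to 0.0488. All were more positive in PMs, as were 4.99% of all genes, while 8.57% were more negative. The 8 were assigned by symbol to the large subunit, as were 47 of the 73 genes tested. The count was 0 to 4 on leaving out any 1 of the 8 libraries and 1 with scaling by total counts.

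Counts on rows outside the members also stood out, because 4 ribosomal protein pseudogenes had many counts in the C2C12 libraries and almost none in the PM libraries. Rps2-ps13 had 47229 counts over the 12 C2C12 libraries and 21 over the 12 PM libraries, Rps26-ps1 had 22955 and 22, Rpl3-ps1 had 19159 and 9, and Rps15a-ps8 had 17936 and 45. The range within the C2C12 libraries was 2040 to 7610, 1008 to 3302, 917 to 2924 and 861 to 2069 counts, and no PM library exceeded 11 on any of them. These 4 rows held 107279 of the 117113 pseudogene counts of the C2C12 libraries. With them added, the day 3 difference between PMs and C2C12 cells went from 0.29 to 0.02 for Rps2, from -0.06 to -0.34 for Rps26 and from 0.40 to 0.22 for Rps15a, none of which passed the test. Whether these reads come from the pseudogenes or from their parent genes was not tested.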

How the results depend on the processing

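With 2 replicates a group, most counts of calls moved when a library was left out, and an arm left with 1 library was assumed to vary like the other groups. Of the 59 results for named genes, 32 lost their call in at least 1 such fit and 9 under another setting (Mrps2 in silenced PMs at day 3; Mrpl13, Rps15, Mrps12 and Rpl29 between the cell types; Mrpl12, Mrpl18 and Mrpl51 in the differing day 3 change), and none changed sign. Adding pseudogene counts moved no count of calls by over 1.5 times and no median by more than the replicate spread. Counts limited only Rpl39l, Rpl3l and Mrpl53. The cause of each shift was not tested.

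With total count scaling, which shifted the median of all genes by -0.21 in PMs at day 3 against day 0, by -0.155 and -0.144 between the cell types at days 3 and 6, and by -0.164 in the differing change, the day 3 falls of mitochondrial genes in C2C12 cells were 21. In PMs the day 3 cytosolic median was -0.73, with 6 mitochondrial rises, 26 falls and a median of -0.135 (reversed). In silenced PMs 1 mitochondrial gene rose at day 0 (median -0.0189) and 2 fell at day 3. Between cell types, 12 cytosolic genes were lower in PMs at day 3 (mitochondrial median 0.37) and 23 at day 6, with 3 mitochondrial genes higher (median 0.0547). The differing change kept 1 mitochondrial call (median 0.24). With median-of-ratios scaling, 1 mitochondrial gene was lower in PMs at day 6.

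Without the filter, 2 cytosolic genes rose in PMs after day 3, 2 mitochondrial genes fell in silenced PMs at day 3, 5 were higher in PMs than C2C12 cells at day 0, and 4 were higher and 1 lower at day 6. The differing effect of silencing then had 1 cytosolic call at day 3, and the differing day 3 change 2 mitochondrial calls.

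With DESeq2, 0 cytosolic genes rose in C2C12 cells by day 3, 1 cytosolic and 18 mitochondrial genes fell in PMs after day 3, and 1 mitochondrial gene fell in silenced C2C12 cells at day 3. In silenced PMs 1 mitochondrial gene rose and 5 fell at day 0, 13 fell at day 3 and 1 at day 6. The differing change had 1 cytosolic and 14 mitochondrial calls.

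The labels number the replicates 1 and 2 in each group, and nothing says that a number marks a shared culture. Deviations of same-numbered libraries correlated at -0.20 to 0.52 over the 15 pairs of C2C12 groups (over 0.1 in 6). Over the 15 pairs of PM groups they correlated at 0.069 to 0.54 (over 0.1 in 14), so same-numbered PM libraries mostly deviated alike. The main fits did not pair the libraries, so any offset shared by a number stayed in their spread. With the replicate as a block, 2 cytosolic genes rose and 14 mitochondrial genes fell in PMs after day 3, 3 and 10 mitochondrial genes fell in silenced PMs at days 0 and 3, 5 cytosolic genes were lower in PMs than C2C12 cells at day 3 and 16 at day 6, and 5 mitochondrial genes were higher and 1 lower at day 6.

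Leaving out each library in turn gave these ranges. From day 0 to day 3 cytosolic rises in C2C12 cells were 0 to 1, cytosolic falls 2 to 20 and mitochondrial falls 2 to 6, and in PMs cytosolic falls were 35 to 51, mitochondrial rises 8 to 14 and mitochondrial falls 6 to 10. After day 3 mitochondrial falls in PMs were 0 to 3. In silenced PMs mitochondrial falls were 0 to 1 at days 0 and 3, and the day 6 medians were -0.20 to 0.16 (cytosolic) and -0.223 to -0.0201 (mitochondrial). In silenced C2C12 cells at day 0 the medians were -0.17 to 0.37 and -0.24 to 0.30. Between cell types at day 0, 0 to 8 cytosolic genes were lower in PMs, and mitochondrial genes were higher in 3 to 7 and lower in 1 to 4 cases (median -0.0688 to 0.18). At day 3 cytosolic genes were higher in 3 to 4 and lower in 0 to 2 cases, and mitochondrial genes higher in 21 to 32 and lower in 0 to 1. At day 6, 0 to 6 cytosolic genes were lower, and 1 to 5 mitochondrial genes higher and 1 lower. In the differing effect of silencing the day 0 medians were -0.26 to 0.27 (cytosolic) and -0.37 to 0.10 (mitochondrial, reversed without C2C12 siTead1/4 replicate 2). Its day 3 medians were -0.38 to -0.00953 and -0.19 to 0.0853, and its day 6 cytosolic median -0.22 to 0.15. The differing day 3 change had 0 to 4 mitochondrial calls and a median of 0.29 to 0.57.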
